A study of Mus musculus with 6 samples.

Results

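The carbonic anhydrase genes were followed in whole fetal livers of Klf1-/- and wildtype FVB/NJ mice at embryonic day 13.5. Klf1 is a Krüppel-like transcription factor of red cell precursors. The embryos came from timed matings of Klf1 +/- mice, and each liver was broken up into single cells before RNA was extracted. The 3 Klf1-/- and 3 wildtype samples were each read on an Affymetrix mouse gene array of their own, so n = 3 per group throughout. How the Klf1 allele was made, and whether the embryos shared litters, is not given in the sources used here, so the p-values measure only the spread between these samples. The members are Car1, Car2, Car3, Car4, Car5b, Car8, Car9, Car12, Car13 and Car14. They were taken by gene symbol, and all 10 were found among 19937 genes measured by a probe set of their own. Each has 1 such probe set.

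Carbonic anhydrases are zinc enzymes that turn carbon dioxide and water into bicarbonate and a proton, and back. In red cells the cytosolic forms let carbon dioxide travel in the blood as bicarbonate, which leaves the cell through the anion exchanger band 3. Other forms sit in mitochondria, where they supply bicarbonate to carboxylases, or on the cell surface, where they help to control pH. The family also holds related proteins that have lost catalytic activity. In the fetus at this stage most red cells are made in the liver, which also holds hepatoblasts, endothelial and stromal cells, macrophages and other blood cells.

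Levels below are RMA intensities in log2, a brightness with no fixed unit. A change is the mean of Klf1-/- less the mean of wildtype livers in log2, given ± its standard error from limma. A gene counts as called where its limma p, adjusted over all genes by the Benjamini-Hochberg method, was under 0.05, and "rose" and "fell" are used of called genes. In bulk livers, fewer cells of a type and less RNA per cell cannot be told apart.

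The 10 carbonic anhydrases did not move together. Car1 and Car5b rose, Car3 and Car13 fell, and Car2, Car4, Car8, Car9, Car12 and Car14 were not called. The 4 called members are 40% of the 10, which were listed with earlier results of these data known. Over all genes 19.1% were called, 10.8% as higher and 8.26% as lower in Klf1-/- livers. Car1 and Car5b changed at least 2-fold, a size reached by 1.56% of all genes. The 3 arrays of each group did not overlap for 6 of the 10 members, against 37.5% of all genes. The median change of the 10 members was 0.09, beside -0.02 over all genes.

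**Figure D1:**
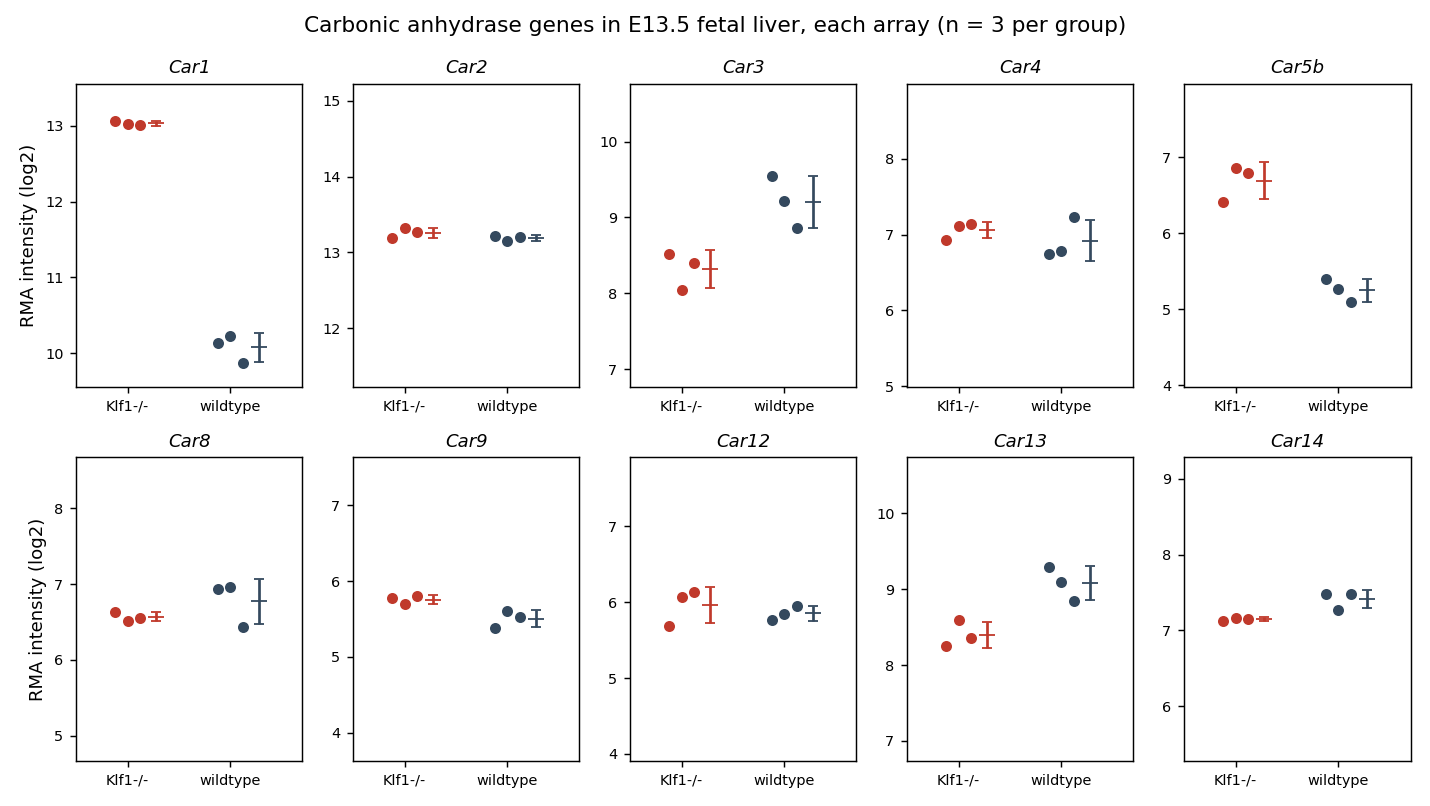
RMA intensity (log2) of the 10 carbonic anhydrase genes on each array, Klf1-/- livers left in red and wildtype livers right in dark blue. Dots are arrays in the order of replicates 1 to 3, the bar beside them is the mean ± SD (n = 3), and every panel spans 4 log2 units. Car1 and Car5b lie higher and Car3 and Car13 lower in all 3 Klf1-/- livers, while the 2 groups of Car2 lie within 0.2 of each other.

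The groups carried the difference in Klf1 that their labels state. Klf1 read 9.05, 9.38 and 9.12 in Klf1-/- replicates 1, 2 and 3, against 10.59, 10.58 and 10.76 in wildtype replicates 1, 2 and 3. The part of the gene that was altered is not given in the sources used here, so transcript from outside it would still give signal. Median intensity per array ran from 104.9 to 108.6 in Klf1-/- livers and from 104.5 to 109.8 in wildtype livers on the linear scale. Of 10 measured red cell precursor markers 8 fell and 0 rose, with a median change of -0.80 and a summed linear intensity of 31681 to 34308 in Klf1-/- livers and 56227 to 61261 in wildtype livers. Ermap, the Scianna blood group gene, showed the largest fall among them, by 1.59 ± 0.07 (limma adjusted p = 1.9e-07).

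The cytosolic enzymes are described first. Car1 is an abundant carbonic anhydrase of adult red cells that is also made in the colon, and its catalytic rate is lower than that of Car2. Its probe set, 10497337, read 13.06, 13.02 and 13.00 in Klf1-/- replicates 1, 2 and 3, against 10.14, 10.23 and 9.87 in wildtype replicates 1, 2 and 3. The groups lay far apart, and the Klf1-/- arrays were within 0.1 of each other. The difference of 2.95 ± 0.10 equals 7.73-fold higher RNA, with a 95% interval of 6.64 to 8.99 (limma adjusted p = 2.0e-08). By size of change Car1 ranked 2 among the rises of all 19937 genes. Its Klf1-/- values lay near the top of the range of their arrays, where intensities can be compressed. Of the 6 gut epithelium markers, 1 rose, Cdh17, with a change of 0.50 ± 0.095, and the list's summed intensity was 488 to 498 in Klf1-/- livers and 475 to 563 in wildtype livers. Without wildtype replicate 3, 2 of these markers rose and 1 fell. The call of Cdh17 was lost with each gene's own variance, without moderation, and with centring on the level of housekeeping genes (adjusted p = 0.065 and 0.097). The part of these markers in the rise of Car1 was not tested.

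Car2 is the fast cytosolic enzyme of red cells, kidney and osteoclasts. Its probe set, 10490923, read 13.19, 13.32 and 13.27 in Klf1-/- livers, against 13.22, 13.14 and 13.21 in wildtype livers. The groups overlapped, and the change was 0.07 ± 0.08 (limma adjusted p = 0.58). The 95% interval of the ratio ran from 0.931 to 1.18. Car2 lay at percentile 99.8 of all genes by mean level, where intensities can be compressed. Among the brightest 1% of genes, 200 in number, 16 rose and 22 fell, with changes between -1.99 and 1.26. With every array centred on the level of housekeeping genes the change of Car2 turned to -0.25 and was called (limma adjusted p = 0.035). That centring moved the median of all genes to -0.34, and less that median Car2 stood at 0.09. With arrays centred instead on the housekeeping genes' deviations from their own means, Car2 stayed at 0.063 (limma adjusted p = 0.67).

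Car3, a slow cytosolic form best known from muscle, fat and liver, went the other way. It read 8.51, 8.04 and 8.40 in Klf1-/- livers, against 9.54, 9.22 and 8.86 in wildtype livers. Every Klf1-/- value lay below every wildtype value, but the wildtype arrays themselves spread over 0.68. The change was -0.89 ± 0.17, or 1.85-fold lower with an interval of 1.44 to 2.39 (limma adjusted p = 0.0036). With each gene's own variance and no moderation the call was lost (adjusted p = 0.11). Markers of tissues that make Car3 were also measured. The 7 muscle markers were all lower, with 1 called, Acta1 at -0.41 ± 0.12, and their summed intensity was 618 to 823 in Klf1-/- livers and 754 to 1089 in wildtype livers. Among 12 hepatoblast markers, which include the secreted plasma proteins, 2 fell, Apoa1 and Fgb, and 0 rose, with sums of 74367 to 79918 in Klf1-/- livers and 77042 to 92817 in wildtype livers. The muscle falls numbered 0 with any array but wildtype replicate 1 left out and 4 without that array, and the hepatoblast falls 0 without Klf1-/- replicate 2 or 3 or wildtype replicate 3, 1 without Klf1-/- replicate 1 and 3 without wildtype replicate 1. Without moderation the calls of Acta1, Apoa1 and Fgb were lost. The part of the muscle and hepatoblast markers in the fall of Car3 was not tested.

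Car13, a cytosolic enzyme found in many tissues, fell by a similar amount. Its values were 8.25, 8.59 and 8.35 in Klf1-/- livers, against 9.29, 9.10 and 8.84 in wildtype livers. The groups did not overlap, with 0.26 between the highest Klf1-/- and the lowest wildtype value. The change was -0.68 ± 0.12, or 1.60-fold lower with an interval of 1.33 to 1.94 (limma adjusted p = 0.0031; adjusted p = 0.090 without moderation).

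Car13, Car1, Car3 and Car2 lie next to each other in this order on mouse chromosome 3, so the locus holds a strong rise, a pair of falls and a gene with no call. No other measured gene lies between them in the RefSeq gene table of GRCm38.p6. The 3 measured genes before the cluster were Lrrcc1, E2f5 and Rbis, with changes of 0.15 ± 0.09, 0.14 ± 0.09 and -0.10 ± 0.11. The 3 after it were Gm9733, Gm5150 and Ythdf3, with changes of 0.0083 ± 0.099, 0.11 ± 0.12 and 0.15 ± 0.09. None of these 6 neighbours was called. Within each array, the difference between Car1 and a neighbour does not depend on the centring of that array. Car1 less Car2 ran from -0.29 to -0.12 in Klf1-/- livers and from -3.34 to -2.91 in wildtype livers, a shift of 2.88. The same shift was 3.84 against Car3 and 3.63 against Car13. In all 3 pairs the groups did not overlap. The exact 2-sided permutation p was 0.10, the smallest that 3 arrays against 3 allow (adjusted over the 3 pairs, also 0.10). This p could not fall under 0.05, so it cannot decide whether the changes were unequal. The gap between the groups in Car1 exceeded the range of Car2, Car3 and Car13 over all arrays. The lack of overlap therefore followed from Car1. The shifts describe the size of the difference in change and set no level of 1 gene against that of another.

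**Figure D2:**
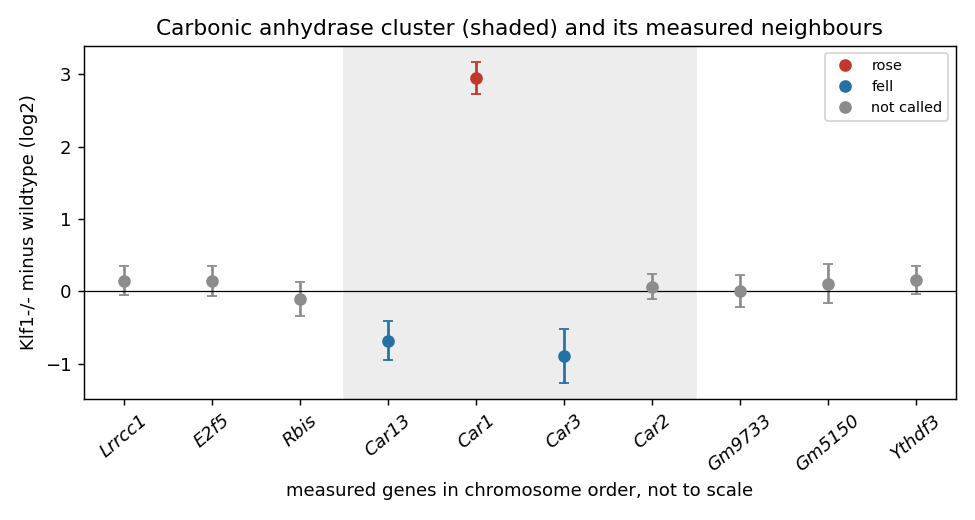
Change (Klf1-/- minus wildtype, log2) of the 4 clustered carbonic anhydrase genes, shaded, and of the 3 measured genes on either side, in chromosome order and not to scale. Points are limma estimates from 3 arrays per group with 95% intervals, red for a called rise, blue for a called fall and grey for no call. Car1 at 2.95 stands between Car13 at -0.68 and Car3 at -0.89, and the 6 flanking genes lie between -0.10 and 0.15.

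Car5b, the widely expressed mitochondrial form, was the other riser. Its probe set, 10607738, read 6.42, 6.86 and 6.80 in Klf1-/- livers, against 5.40, 5.26 and 5.10 in wildtype livers. All Klf1-/- values lay more than 1 log2 unit above the highest wildtype value. The change was 1.44 ± 0.12, or 2.72-fold higher with an interval of 2.25 to 3.29 (limma adjusted p = 1.7e-05), and it ranked 30 among the rises of all genes. Car5b was dim, at percentile 33.1 of all genes by mean level, and the wildtype values lay below the lower quartile of their arrays, which was 5.51 to 5.57. A fold change so near background can understate the true ratio. Car5b lies on the X chromosome, and 1 liver of each group, Klf1-/- replicate 1 and wildtype replicate 2, had low Xist and high Y-linked RNA. Xist read 5.84 and 5.59 in these livers and between 12.99 and 13.26 in the other 4. With the mean of the Y-linked genes as a covariate Car5b rose by 1.45 (limma adjusted p = 1.3e-05). With 1 such liver in each group, this covariate could hardly move the change.

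The Car5b promoter is printed because this gene changed and its start region holds several copies of the letters read by Krüppel-like factors. The sequence is RefSeq's, GRCm38.p6, chrX:164027961-164028260, minus strand, from 250 bases before to 50 bases after the start, with matches to CCNCNCCC on either strand in capitals.
Car5b promoter: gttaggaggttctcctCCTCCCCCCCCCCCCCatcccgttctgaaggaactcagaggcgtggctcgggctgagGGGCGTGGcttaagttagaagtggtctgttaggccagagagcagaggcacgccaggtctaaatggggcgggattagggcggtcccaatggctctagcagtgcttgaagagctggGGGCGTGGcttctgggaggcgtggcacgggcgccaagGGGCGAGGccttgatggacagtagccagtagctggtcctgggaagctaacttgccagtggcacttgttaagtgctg
The 10 matches, some of which overlap, form 4 separate stretches, the first of which is a run of cytosines. CCNCNCCC occurs in 49.5% of 32851 mouse promoter windows of this length, and 4.84% hold at least 4 separate stretches, a count chosen after the sequence was seen. The window has no AGATAA, the GATA factor letters, which 11.2% of windows hold. It has 5 GCGTG, of which 2 lie inside capitalised stretches. GCGTG and ACGTG are the core letters of sites for hypoxia-inducible factor, or HIF. A match of letters is a description and shows no binding.

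The enzymes of the cell surface changed little. Car9 is a transmembrane enzyme and a classic target of HIF, the factor that answers low oxygen. It read 5.77, 5.69 and 5.80 in Klf1-/- livers, against 5.38, 5.60 and 5.53 in wildtype livers. The groups did not overlap, yet the smallest gap was under 0.1, and the change of 0.25 ± 0.08 missed the threshold (limma adjusted p = 0.062). It passed after quantile normalization of the arrays, at 0.35 (adjusted p = 0.0087), and when genes below the 25th percentile were left out (adjusted p = 0.046), and it turned to -0.065 with centring on the level of housekeeping genes. That centring moved the median of all genes to -0.34, and less that median Car9 stood at 0.28. Car9 was dim, at percentile 27.2.

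The Car9 promoter is shown for its HIF letters: RefSeq, GRCm38.p6, chr4:43506776-43507075, plus strand, 300 bases as for Car5b, with the match to ACGTG, here on the opposite strand, in capitals.
Car9 promoter: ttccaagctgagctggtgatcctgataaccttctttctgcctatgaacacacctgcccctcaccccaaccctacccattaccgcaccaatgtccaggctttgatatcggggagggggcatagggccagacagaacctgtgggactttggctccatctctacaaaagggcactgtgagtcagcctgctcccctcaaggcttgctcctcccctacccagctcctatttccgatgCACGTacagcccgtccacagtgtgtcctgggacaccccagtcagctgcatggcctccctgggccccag
The match is 18 bases before the start. ACGTG was found in 19.6% of all windows and GCGTG in 32.4%. Promoter windows were matched for 5 of the 10 members, Car4, Car5b, Car9, Car12 and Car14. CCNCNCCC was present in all 5 and ACGTG in Car4, Car9 and Car14, none of which was called. AGATAA was in none of the 5.

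Car14, a transmembrane enzyme of kidney and liver among other tissues, read 7.13, 7.17 and 7.16 in Klf1-/- livers, against 7.48, 7.27 and 7.48 in wildtype livers. The groups did not overlap. The change of -0.26 ± 0.08 lay at the threshold (limma adjusted p = 0.052), and it was called under 7 of 18 alternatives, always as lower. These were quantile normalization, both a 75th percentile and a housekeeping level centring, both filters on dim genes, the Y-linked covariate and leaving out wildtype replicate 2.

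Car4, which is tied to the outer membrane by a lipid anchor and is known from capillary endothelium, ran from 6.93 to 7.13 in Klf1-/- livers and from 6.75 to 7.23 in wildtype livers. Its change was 0.14 ± 0.13 (limma adjusted p = 0.46). Of 10 endothelial markers 2 rose, Flt1 by 0.51 ± 0.11 and Pecam1 by 0.40 ± 0.12, a call that leaving out wildtype replicate 1 or 2 or Klf1-/- replicate 2 or 3 removed. Without wildtype replicate 3 the count was 5, and without moderation the calls of Flt1 and Pecam1 were lost. The summed intensity of the 10 markers was 4795 to 5692 in Klf1-/- livers and 4422 to 6178 in wildtype livers. Car12, another transmembrane enzyme, ran from 5.69 to 6.14 in Klf1-/- livers and from 5.76 to 5.95 in wildtype livers. The groups overlapped, with a change of 0.11 ± 0.12 (limma adjusted p = 0.52). Car4 and Car12 turned to -0.18 and -0.20 with centring on the level of housekeeping genes, without being called. Less the median of all genes under that centring, -0.34, they stood at 0.17 and 0.14.

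Car8 belongs to the catalytically inactive relatives and binds the inositol trisphosphate receptor in nerve cells. It ran from 6.52 to 6.63 in Klf1-/- livers and from 6.43 to 6.96 in wildtype livers, so the groups overlapped through wildtype replicate 3. The change was -0.21 ± 0.13 (limma adjusted p = 0.29). Without wildtype replicate 3 it was -0.38 and called (limma adjusted p = 0.014). With centring on the level of housekeeping genes it was -0.52 (limma adjusted p = 0.0060). That centring moved the median of all genes to -0.34, and less that median Car8 stood at -0.18.

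The family genes outside the member list are Car5a, Car6, Car7, Car10, Car11 and Car15, and 0 of these 6 were called. Car5a is the mitochondrial form of hepatocytes and therefore the closest relative in role to Car5b. It ran from 5.39 to 5.55 in Klf1-/- livers and from 5.46 to 5.61 in wildtype livers, with a change of -0.04 ± 0.08 (limma adjusted p = 0.75). The secreted salivary enzyme Car6, the cytosolic Car7, the lipid-anchored Car15 and the inactive relatives Car10 and Car11 had changes from -0.21 to -0.08. Centring on the level of housekeeping genes called all 6 as lower, with changes from -0.52 to -0.36 where the median of all genes was -0.34. Car10 was also called as lower with 75th percentile centring, at -0.26 (adjusted p = 0.040). After quantile normalization Car5a and Car15 turned to 0.062 and 0.015.

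**Figure D3:**
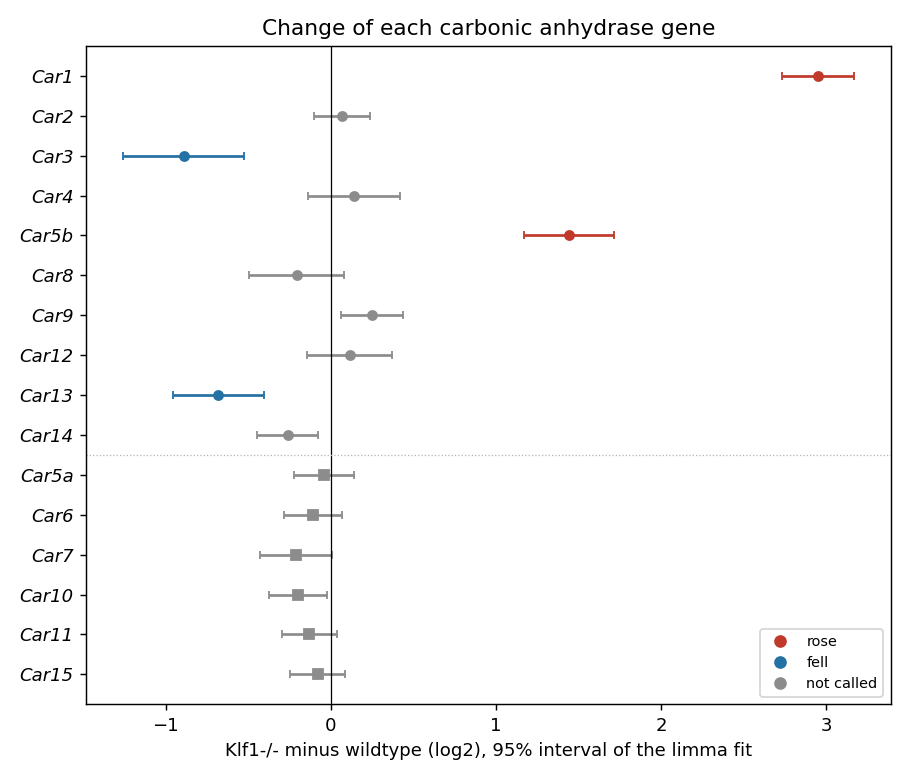
Change (Klf1-/- minus wildtype, log2) of the 10 members, as circles above the dotted line, and of the 6 other family genes, as squares below it. Bars are 95% intervals of the limma fit (n = 3 per group), with rises in red, falls in blue and genes without a call in grey. Car1 at 2.95 and Car5b at 1.44 stand to the right, and Car3 and Car13 to the left, of the other 12 genes, which lie between -0.26 and 0.25.

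Carbonic anhydrases work with transporters that carry bicarbonate, protons, lactate and gases across the membrane. Of 23 measured transport genes 5 fell, 2 rose and 16 were not called, with a median change of -0.15. Slc4a5, a sodium bicarbonate cotransporter, read 6.23, 6.17 and 5.96 in Klf1-/- livers, against 8.44, 7.85 and 8.04 in wildtype livers, a change of -1.99 ± 0.14 (limma adjusted p = 3.5e-06). Aqp1, the red cell water channel that also passes carbon dioxide, read 7.11, 7.36 and 7.51 in Klf1-/- livers, against 9.15, 9.28 and 9.46 in wildtype livers, a change of -1.97 ± 0.12. The 2 genes thus lost about 2 log2 units each with no overlap of the groups. Rhd, a Rh blood group gene, fell by 1.53 ± 0.09, and Slc16a1, which moves lactate together with protons, fell by 0.84 ± 0.08.

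Slc4a1 encodes band 3, the exchanger through which red cell bicarbonate leaves. It read 12.68, 12.88 and 12.81 in Klf1-/- livers, against 13.52, 13.48 and 13.71 in wildtype livers, and fell by 0.78 ± 0.09 (limma adjusted p = 0.00016). Its cytosolic partners in the same livers were Car1 with a change of 2.95 and Car2 with 0.07. The risers of the transport list were Slc16a3, the lactate exporter of glycolytic cells, by 0.94 ± 0.08, and Slc26a9, an anion transporter, by 0.31 ± 0.09. The call of Slc26a9 was lost without any 1 of wildtype replicate 1 or 3 or of the Klf1-/- replicates, which left 1 riser. With centring on the level of housekeeping genes 18 transport genes fell and 1 rose, where the median of all genes was -0.34.

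Mitochondrial carbonic anhydrases supply bicarbonate to carboxylases, so these were set beside Car5b. The list covers bicarbonate-using carboxylases in general and is not limited to those of mitochondria. Of 9 measured carboxylase genes 3 rose, 0 fell and 6 were not called, with a median of 0.07. Over all genes 10.8% rose. Mccc1, a subunit of the enzyme that breaks down leucine products, rose by 0.52 ± 0.09 (limma adjusted p = 0.0027). Its partner subunit Mccc2 rose by 0.36 ± 0.11 and the propionyl-CoA carboxylase subunit Pcca by 0.32 ± 0.08. Only Mccc1 was called without Klf1-/- replicate 3, and Mccc2 lost its call without any other array except wildtype replicate 1. Centring on the level of housekeeping genes left 0 rises and 4 falls, where the median of all genes was -0.34.

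Most HIF targets rose. Of 23 measured, 18 rose, 2 fell and 3 were not called, with a median of 0.54, while 10.8% of all genes rose. With centring on the level of housekeeping genes 10 HIF targets rose, where the median of all genes was -0.34. The oxygen-sensing hydroxylase gene Egln3 rose by 2.35 ± 0.11, the mitophagy receptor gene Bnip3 by 2.09 ± 0.18, and the glycolytic gene Aldoa by 1.22 ± 0.08. The glucose transporter gene Slc2a1 fell by 1.99 ± 0.08, and the mitophagy receptor gene Bnip3l by 0.35 ± 0.09, a call lost without Klf1-/- replicate 1 or 3, which left 1 fall. Car9 and Car12 are the carbonic anhydrases most often named as HIF targets. Their changes of 0.25 and 0.11 lay below the list's median, as part of any list does. Both were dim, at percentiles 27.2 and 31.9 of all genes, where a change can be understated.

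**Figure D4:**
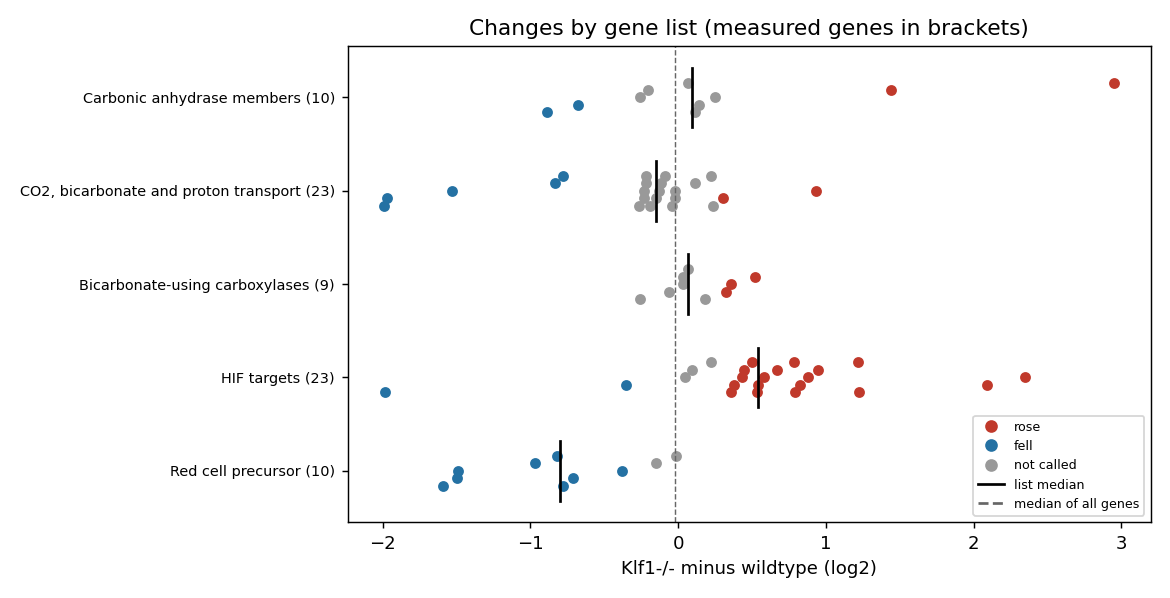
Change (Klf1-/- minus wildtype, log2) of each measured gene in the carbonic anhydrase members and 4 lists, with the number of measured genes in brackets. Dots are limma estimates (n = 3 per group), red for rises, blue for falls and grey for genes without a call, the black bar is the list median and the dashed line the median of all genes. HIF targets centre on 0.54 and red cell precursor genes on -0.80, while the carbonic anhydrases spread from -0.89 to 2.95 around 0.09.

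Other cell types of the liver moved as follows, and their part in the carbonic anhydrase changes was not tested. All 5 measured megakaryocyte markers rose, led by the integrin gene Itga2b at 1.05 ± 0.12, and 4 did with any 1 array but Klf1-/- replicate 1 left out, when Ppbp lost its call. Of 8 granulocyte markers 4 rose, Mpo, Elane, Ltf and Prtn3, and 2 to 6 did with 1 array left out, with 2 without Klf1-/- replicate 3 or wildtype replicate 3. Of 10 macrophage markers 7 fell, led by Cd5l at -0.90 ± 0.13, and 5 to 8 did with 1 array left out. With each gene's own variance, without moderation, many of these calls were lost. They were those of Pf4, Gp9, Clec1b and Ppbp for megakaryocytes and of Mpo, Elane, Ltf and Prtn3 for granulocytes. For macrophages they were those of Cd5l, Adgre1, C1qa, Cd68, Spic and Vcam1. Among mesenchymal and stellate markers 1 of 10 fell, Lum, with 0 without Klf1-/- replicate 2 and 4 without wildtype replicate 1. Among mesothelial markers 2 of 6 fell, Msln and Upk1b, with 0 without wildtype replicate 2 or Klf1-/- replicate 2 or 3, 1 without wildtype replicate 3 or Klf1-/- replicate 1 and 3 without wildtype replicate 1. Summed intensities in Klf1-/- and wildtype livers were 17253 to 22527 and 13579 to 14160 for megakaryocytes, and 6519 to 8159 and 5058 to 5619 for granulocytes. They were 3672 to 4162 and 4925 to 6035 for macrophages, 5104 to 6035 and 5336 to 7811 for mesenchymal cells, and 587 to 653 and 639 to 786 for mesothelial cells. RMA lists no gene at 0, so absence of a marker cannot be read from these values. Without moderation the calls of Lum, Msln and Upk1b were also lost.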

How the data were processed

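The deposited table holds linear intensities per probe set. Per the submitters' processing notes they come from RMA, run in version 1.8.6 of Affymetrix Power Tools. The authors' build and annotation are not given here. RMA equalises the arrays, so a change in total RNA cannot be seen. Of 34760 probe sets, 21640 had 1 gene in the platform annotation, 1321 several and 11799 none. Each gene was read from its brightest single-gene probe set, and log2 was taken with no filter. Klf1-/- livers were compared with wildtype livers over all 19937 genes with limma 3.58.1 (lmFit, eBayes; R 4.3.3) and Benjamini-Hochberg adjustment over all genes. The number of arrays limits the precision. Members and lists were chosen with earlier results of these data known.

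Besides all family genes and Klf1, genes were named as up to 4 called members of a list with the largest change, the 3 profiles nearest to Car1 and to Car2, and 3 measured genes on each side of the chromosome 3 cluster. Rhag, Gata1 and list members beyond the 4 were named after their values were seen. On simulated data for these 19937 genes the fit recovered 68% of 50 genes changed 1.5-fold, 90% changed 2-fold and 100% changed 4-fold. Far fewer genes were changed there than the 3809 called here. The Benjamini-Hochberg adjustment depends on that number, so the recovery need not hold for these livers. Alternatives were other normalizations and centrings, filters on dim genes, the mean of probe sets, other variance models, a Y-linked covariate, a replicate block, thresholds, and omission of each array. Centring without Pgk1 was added after seeing the data.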

Additional observations from a re-analysis of the deposited data

How the results depend on the processing

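Car1 and Car5b rose under all alternatives that kept them, by 2.63 to 3.03 and 1.13 to 1.58. The filter at the median level removed Car5b and left 1 riser. Variance models, filters on dim genes and the replicate block cannot move a member's change. Nor can the mean of probe sets, as each member has 1 probe set. Car3 and Car13 stayed negative, at -1.21 to -0.72 and -0.996 to -0.573. Their calls were lost without moderation, with changes of -0.89 and -0.68 as before and 0 falls, and a 2-fold minimum also left 0 falls. Genes called ran from 2083 without moderation to 13235 with housekeeping level centring, against 3809, and were 2409 and 2414 without Klf1-/- replicate 2 or 3.

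Quantile normalization called Car9 at 0.35 and Car14 at -0.30 and turned Car5a to 0.062 and Car15 to 0.015. Car14 was also called at -0.33 with 75th percentile centring, at -0.26 with either filter on dim genes and at -0.26 with the Y-linked covariate, and Car9 at 0.25 with the filter at the 25th percentile; with fewer genes tested, those filters change the adjustment and not the values. Housekeeping level centring gave 5 falling members, Car3 and Car13 with Car2 at -0.25, Car8 at -0.52 and Car14 at -0.58. It also turned Car4 to -0.18, Car9 to -0.065 and Car12 to -0.20, none of them called. It left 1 rise and 18 falls among transport genes, 0 and 4 among carboxylases and 10 rises among HIF targets. Less that setting's median over all genes, -0.34, Car2 stood at 0.09, Car8 at -0.18 and Car14 at -0.24. The housekeeping genes themselves had a median change of 0.014. Centring on their deviations from each gene's own mean gave Car2 0.063, Car4 0.14 and Car8 -0.21. Car9 then stood at 0.25 and Car12 at 0.11, and none of these was called. That deviation centring left 5 falls among transport genes, 3 rises and 0 falls among carboxylases and 18 rises among HIF targets. Transport rises were 1 with 75th percentile centring, either housekeeping deviation centring, the filter at the median level and no moderation. Without moderation carboxylases had 1 rise and HIF targets 1 fall, and the mean of probe sets gave 1 HIF fall. A centring takes the same value off every gene of an array, so within a centring all changes move by an equal amount. Any further cause was not tested for the normalizations and centrings.

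With 1 array left out, falling members numbered 2 to 3, Car2 ran from 0.038 to 0.10, Car8 from -0.38 to -0.11, Car4 from 0.054 to 0.30, Car12 from 0.029 to 0.25, Car14 from -0.33 to -0.23 and Car5a from -0.079 to 0.0062. Transport rises numbered 1 to 2, carboxylase rises 1 to 3 and HIF falls 1 to 2. Car1 less Car2 ran from 2.77 to 2.98. Deviations of same-numbered arrays from their group means correlated at -0.16, -0.22 and 0.18. Arrays of unlike number were not compared in this way, so these values cannot decide whether replicate numbers pair the livers. With the replicate block 2 members rose and 2 fell, as without it. Each block holds an array of either group, so it cannot move a change, and Car1 stayed at 2.95. Intensities near background limit what Car5b, Car9 and Car12 can show, and brightness near the top of the range limits Car2, and Car1 in Klf1-/- livers.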

Other observations

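The genes whose levels followed Car1 most closely over the 6 arrays were Hecw1, a ubiquitin ligase gene, Alox5, the lipoxygenase of leukotriene synthesis, and Btn1a1, a butyrophilin gene. Likeness was the root mean square difference between profiles after each gene's own mean was taken off, and it was 0.18 for Hecw1, 0.21 for Alox5 and 0.25 for Btn1a1 on the log2 scale. These genes rose by 3.13 ± 0.11, 2.62 ± 0.09 and 2.70 ± 0.10, and the measure mainly finds changes of like size. For Car2 the nearest profiles were Calb2, Cox19 and Ddx24, at 0.011, 0.014 and 0.018, with changes of 0.05, 0.07 and 0.05, none called. A profile this flat has many close neighbours.

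Of the 10 measured red cell precursor markers 8 fell. The 2 that were not called were Rhag, the Rh-associated glycoprotein gene, and the transcription factor gene Gata1. Rhag read 12.68, 12.76 and 12.77 in Klf1-/- livers, against 12.88, 12.85 and 12.93 in wildtype livers, a change of -0.15 ± 0.08 (limma adjusted p = 0.19). Its groups did not overlap, unlike those of Car2. Gata1 had a change of -0.016 ± 0.082 (limma adjusted p = 0.91).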
